A study of Homo sapiens with 30 samples.

Results

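Glycolysis and the pentose phosphate pathway are described here through 34 genes, of the 20367 gene symbols in a PRO-Seq table of G401 cells. They were chosen by gene symbol, from what the proteins do, and all 34 were in the table. G401 is an established malignant rhabdoid tumor (MRT) cell line that lacks SNF5, the SWI/SNF chromatin remodeling subunit encoded by SMARCB1. The question was how RNA polymerases on these genes, MYC at their starts and open chromatin at their starts differed when SNF5 was put back or when MYC was inhibited with OmoMYC, a MYC mutant that competes with MYC for binding.

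Cells transduced with lentivirus carried a TET-inducible EGFP, SNF5 or OmoMYC construct, were selected with G418, and all received 1 μg/ml doxycycline for 24 h, the EGFP controls included. Every group is therefore the same tumor line, SMARCB1-deficient except where SNF5 was supplied from the vector. PRO-Seq, which labels RNA in nuclei as polymerases extend it, was done on 3 EGFP, 3 SNF5 and 3 OmoMYC samples, ATAC-Seq for open chromatin on 3 of each, and ChIP-Seq for MYC on 2 of each. Both constructs are compared with the same 3 EGFP samples, so that the comparisons are not independent of each other.

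As background, glucose enters cells through facilitative transporters of the SLC2A family, is trapped by hexokinase and is split and oxidized to pyruvate. Lactate dehydrogenase turns pyruvate into lactate, which leaves through SLC16A carriers, while pyruvate dehydrogenase passes it to mitochondria unless a PDK kinase switches that complex off. The pentose phosphate pathway branches off after hexokinase and yields NADPH and ribose for nucleotides. Many of these genes are textbook targets of MYC and of the hypoxia factor HIF-1, and MYC binds the E-box CACGTG with its partner MAX.

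MYC ChIP-Seq peaks had a summit within 1 kb of the PRO-Seq table's transcript start, in both EGFP samples, for 6 of the 34 genes, against 4.31% of all 20367 genes. These were ENO1, GAPDH, LDHA, LDHB, RPIA and SLC16A1. Among genes with a mean of at least 10 gene body reads in PRO-Seq, such peaks were at 6 of 30 and at 832 of all 15060. The letters under the peaks of the genes bound in both EGFP samples are shown because they hold the core E-box that MYC and MAX recognize. Each stretch has 30 bases of the GRCh37 (hg19) reference, read 5′ to 3′ on the strand of the gene, with CACGTG in capitals. With any GENCODE start of the gene in place of the table's start, 10 of the 34 were bound in both EGFP samples, against 5.21% of all genes. HK2, ENO3 and PFKFB3 are shown on that ground, and GPI is the other gene added.
ENO1, nearer E-box: agtgcagatcaaCACGTGattaccgactgc
ENO1, farther E-box: caatgccaggcgCACGTGctgggcccccga
LDHA: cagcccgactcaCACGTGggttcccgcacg
LDHB: cgggagtcgggaCACGTGcccgagtagctg
RPIA: ctcccgggttccCACGTGcggctgccgggg
SLC16A1: tgggacgccggtCACGTGgcggggaggggg
HK2, upstream E-box: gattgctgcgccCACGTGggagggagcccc
HK2, downstream E-box: ttccggcgagagCACGTGgagagaatcgtg
ENO3: gccgcacccgggCACGTGgcggcgctcccc
PFKFB3: gcacgccgcgttCACGTGctgtcgcgcgcc

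On the plus strand the stretches were ENO3 at chr17:4853174-4853203, HK2 at chr2:75062091-75062120, HK2 at chr2:75062136-75062165, LDHA at chr11:18416011-18416040, PFKFB3 at chr10:6205758-6205787 and RPIA at chr2:88991322-88991351. On the minus strand they were ENO1 at chr1:8938374-8938403, ENO1 at chr1:8938420-8938449, LDHB at chr12:21810332-21810361 and SLC16A1 at chr1:113498998-113499027. GENCODE places the RPIA motif in an exon, the LDHA motif before its transcripts of the gene, though past the table's start, and the other 8 in introns. The motifs lay 2 to 66 bp from the summit of the EGFP 2 peak, the longer of the EGFP peak lists. The search covered 100 bp to each side of that summit, and CACGTG is its own reverse complement, so that 1 strand holds both. Among the 6 genes bound at the table's start, 5 had the motif there, and of all 878 genes bound in both EGFP samples 443 had it (50.5%). GAPDH and GPI had no CACGTG in that window, set on the stronger of their 2 EGFP 2 peaks, which says only that these letters were not there. In RefSeq promoters of GRCh38.p14, taken from 250 bases before to 50 after a start, CACGTG was present in 6 of 58 promoters of the 31 genes that the promoter table holds and in 7.26% of all 35116 promoters. Those promoters were of ALDOA, ALDOC, GAPDH, HK2, LDHA and PFKFB3. GAPDH therefore had the motif near a RefSeq start, though not in the window round its summit.

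Peak heights at these 6 genes ran from 4.34 to 6.42 in EGFP 1 and from 7.98 to 12.1 in EGFP 2. Fold enrichment over the local background, as the peak caller gave it, was 6.34 and 10.5 at ENO1, the enolase of most tissues, in EGFP samples 1 and 2. It was 5.89 and 12.1 at LDHA, which encodes the lactate dehydrogenase subunit that favors lactate. At SLC16A1, the lactate carrier MCT1, it was 6.24 and 11.0. LDHB had 6.42 and 8.12, GAPDH 5.51 and 7.98, and RPIA, the ribose 5-phosphate isomerase, 4.34 and 8.69. Each was higher in EGFP 2, whose list held 5396 peaks against 940 in EGFP 1, so heights are compared within a sample only. Whether or not EGFP 1 had one, 16 of the 34 genes had a peak in EGFP 2, against 23.1% of all genes.

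With SNF5, 0 of the 34 genes had a MYC peak at the table's start in either sample, against 0.643% of all genes. Those lists held 137 and 27 peaks in all, and the OmoMYC lists were empty apart from a placeholder line. HK2, the hexokinase isoform of many tumors, was the exception with GENCODE starts. Its table start lies upstream of every GENCODE start of the gene used here, and its peak had fold enrichments of 10.9 and 14.9 in the EGFP samples, the highest of the 34 genes in each, and 6.49 and 5.18 in the SNF5 samples. It was the only one of the 34 with a MYC peak in a SNF5 sample. At GPI the EGFP 1 peak (summit at chr19:34850300) and the stronger of 2 EGFP 2 peaks (summit at chr19:34856162) lay at different starts. Whether the weaker EGFP 2 peak shared the EGFP 1 site was not examined, so that GPI is among the 10 without a shared site being shown. The peak lists hold no read counts, so that a missing peak is a signal under the caller's threshold and not an absence of MYC.

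**Figure D1:**
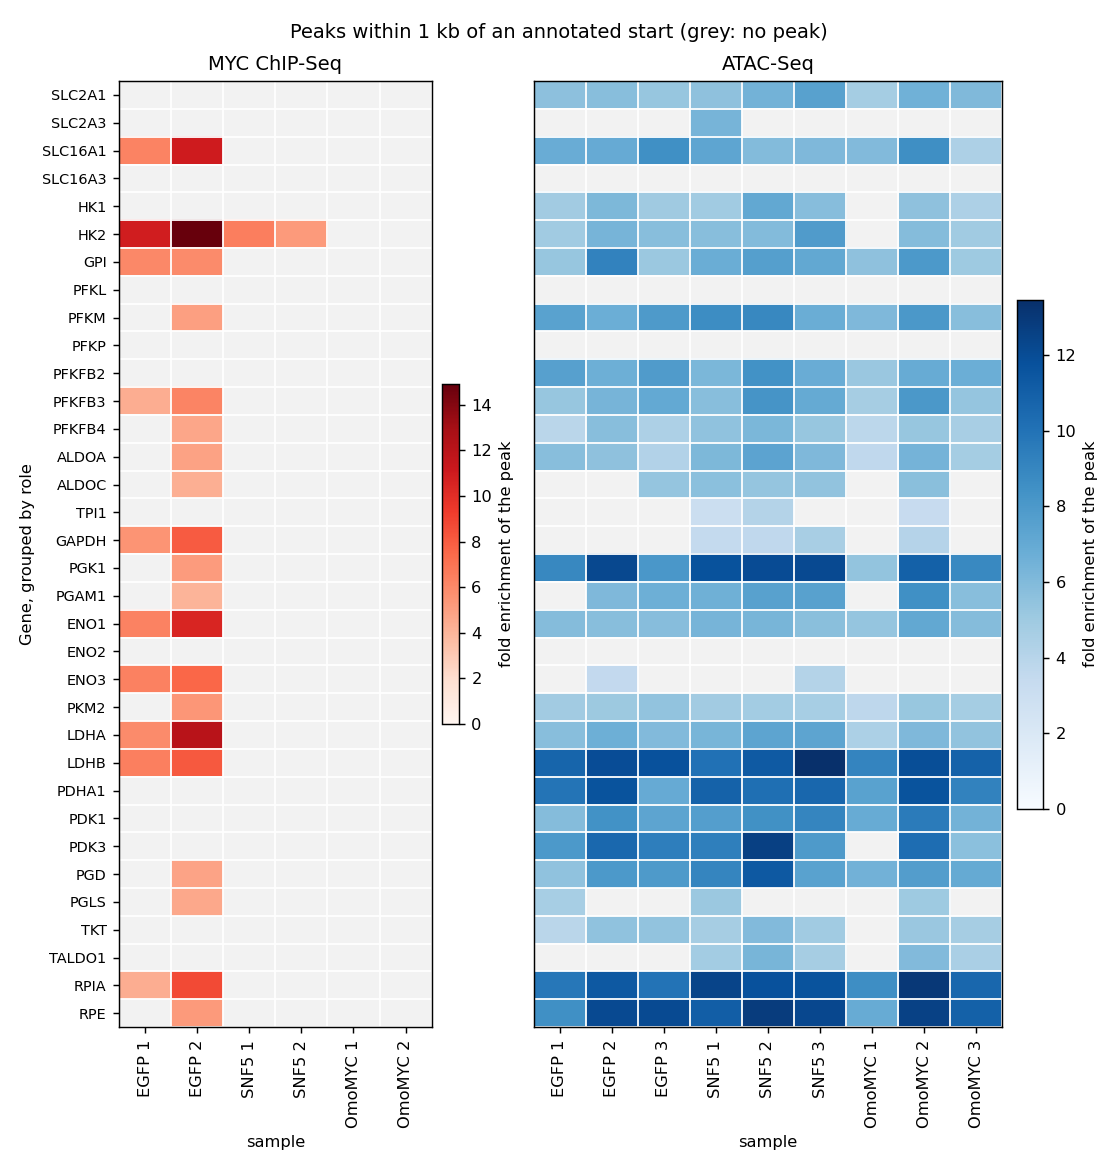
MYC ChIP-Seq peaks (left, red) and ATAC-Seq peaks (right, blue) within 1 kb of any GENCODE start of each of the 34 genes (rows) in each sample (columns); color gives the fold enrichment of the highest peak and grey no peak. MYC peaks stood at HK2 in both SNF5 samples and at none of the other 33 genes outside EGFP cells.

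Chromatin was open at most of these starts in EGFP cells. An ATAC-Seq peak lay within 1 kb of a start in all 3 EGFP samples for 22 of the 34 genes, against 35.5% of the 17634 genes with a GENCODE start, and in all 9 samples for 18, against 28.5%. PGK1, phosphoglycerate kinase, and TKT, transketolase, were among the 22. The shares over all genes include genes with few or no PRO-Seq reads, and a gene with more annotated starts has more places for a peak. For ATAC-Seq, and for MYC peaks at GENCODE starts, no share over transcribed genes alone was taken. Whether the higher shares are particular to these pathways was not tested. GAPDH and TALDO1, the transaldolase, had a peak in 0 of 3 EGFP and 3 of 3 SNF5 samples, a pattern found for 2.02% of all genes. TALDO1 also had one in 2 of 3 OmoMYC samples and GAPDH in 1. None of the 34 had a peak in 3 of 3 EGFP samples and 0 of 3 SNF5 or OmoMYC samples. That pattern was rare over all genes too, at 0.00567% with SNF5 and 0.017% with OmoMYC. ENO2, PFKL, PFKP and SLC16A3 had no peak in any sample. The SNF5 lists held 22722 to 33596 peaks and the EGFP lists 9208 to 17817, and the same number of strongest peaks (7260) was therefore also taken from every sample. Then 13 starts were open in all 3 EGFP samples, against 24.3% of all genes, and 0 were gained with SNF5, against 0.113%. PKM2 was lost with SNF5 (0.329% of all genes) and HK2 with OmoMYC (0.153%). In the full lists PKM2 had peaks in 3 of 3 SNF5 samples and HK2 in 2 of 3 OmoMYC samples. These losses therefore include peaks that ranked below the cut and are not read as closed starts.

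The PRO-Seq samples held 28444943 to 46957634 gene body reads and 518900 to 3386528 promoter-proximal reads. Replicate 1 of each construct had 1.49 to 2.01 promoter-proximal reads per 100 gene body reads and the other replicates 4.40 to 11.5, a difference by replicate number that was taken into every test. SMARCB1, whose loss defines the line, had 1 to 6 gene body reads in the EGFP and OmoMYC samples and 2870 to 4467 in the SNF5 samples. Gene body reads on MYC had a change of −0.46 ± 0.22 (log2, SE) with SNF5, which did not pass (adjusted p = 0.134). With OmoMYC they were 0.95 ± 0.22 higher (adjusted p = 0.0374), where reads from the construct and from MYC itself cannot be told apart. All samples are bulk, so that a change in every cell and a change in the share of cells that transcribe a gene cannot be told apart either.

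Transcription along the gene body was compared per length, as RPKM (reads per kb, scaled to the sample's gene body reads), for the 30 genes with a mean of at least 10 reads. Their median over the EGFP samples was 3.17 RPKM, against 1.23 over all 15060 genes tested. GAPDH led with a mean of 18.5 RPKM, followed by ENO1 at 16.1, LDHA at 13.0, PGAM1 at 11.4 and PKM2 at 10.6, and the lowest were PDK3 at 0.364, HK1 at 0.386 and PDK1 at 0.470. The EGFP samples of GAPDH and ENO1 overlapped, as did those of LDHA, PGAM1 and PKM2, while every ENO1 value exceeded every LDHA value. ENO2, PGK1, TKT and TPI1 were listed at 0 reads in both regions and all 9 samples. PGK1 and TKT had open starts in at least 8 of 9 ATAC-Seq samples, so that a 0 in this table is not read as a silent gene.

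Gene body reads of 12 of the 30 genes changed with SNF5, 4 higher and 8 lower, where 34.4% of all genes tested passed, 17.3% higher and 17.1% lower (adjusted p under 0.05, edgeR's quasi-likelihood test with the replicate number as a block). PDK1 and SLC2A3 rose most, and RPIA, PFKL, PFKFB2, ALDOA and LDHA fell most. The median over the 30 was −0.097 on the log2 scale and that over all genes −0.031. In 17 of the 30 the SNF5 sample was below the EGFP sample in all 3 replicate numbers, against 32.1% of all genes, and in 6 it was above in all 3, against 27.1%. The SNF5 and EGFP samples did not overlap at ALDOA, ENO1, PFKFB2 and RPIA, lower with SNF5 (8.25% of all genes), or at PDK1, higher with SNF5 (10.9%).

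With OmoMYC 6 of the 30 changed, 1 higher and 5 lower, where 8.49% of all genes passed, 3.98% higher and 4.52% lower. SLC16A1, GPI, GAPDH, TALDO1 and PGAM1 fell and ENO3 rose. The median over the 30 was −0.14 and that over all genes −0.0033. In 18 of the 30 OmoMYC was below EGFP in all 3 replicate numbers, against 27.9% of all genes, and in 6 it was above, against 26.3%. The samples did not overlap at ENO1, PGAM1, RPIA, SLC16A1 and TALDO1, lower with OmoMYC (5.56% of all genes), or at ENO3, higher with OmoMYC (5.91%). Over all genes 599 rose and 680 fell with OmoMYC, which became 828 and 418 when gene body totals alone set the scale, and the 30 then gave 2 higher and 5 lower.

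These counts depended on which replicates entered. For OmoMYC edgeR called 0 of the 30 without replicate 1 (7 at an unadjusted p under 0.05) and 0 without replicate 2 (9 unadjusted), beside 2 of all genes each time. Without replicate 3 it called 23, beside 44.9% of all genes. For SNF5 the same removals gave 4, 3 and 20 calls, beside 11.1%, 9.63% and 56.9% of all genes. SLC2A3, ALDOA and PDK1 passed with SNF5 under each of the 3 removals.

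SNF5 and OmoMYC differed from each other at 7 of the 30 genes, 5 higher and 2 lower with SNF5, where 19% of all genes passed, 11.4% higher and 7.56% lower. PDK1, HK2, SLC2A3, SLC16A1 and GAPDH were higher with SNF5, and PFKFB2 and ENO3 lower. Over all genes 1719 were higher and 1139 lower with SNF5. With gene body totals alone these were 1496 and 1831, and the 30 then gave 3 higher and 5 lower. SLC2A3, SLC16A1 and PDK1 were higher with SNF5 under each removal of a replicate.

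**Figure D2:**
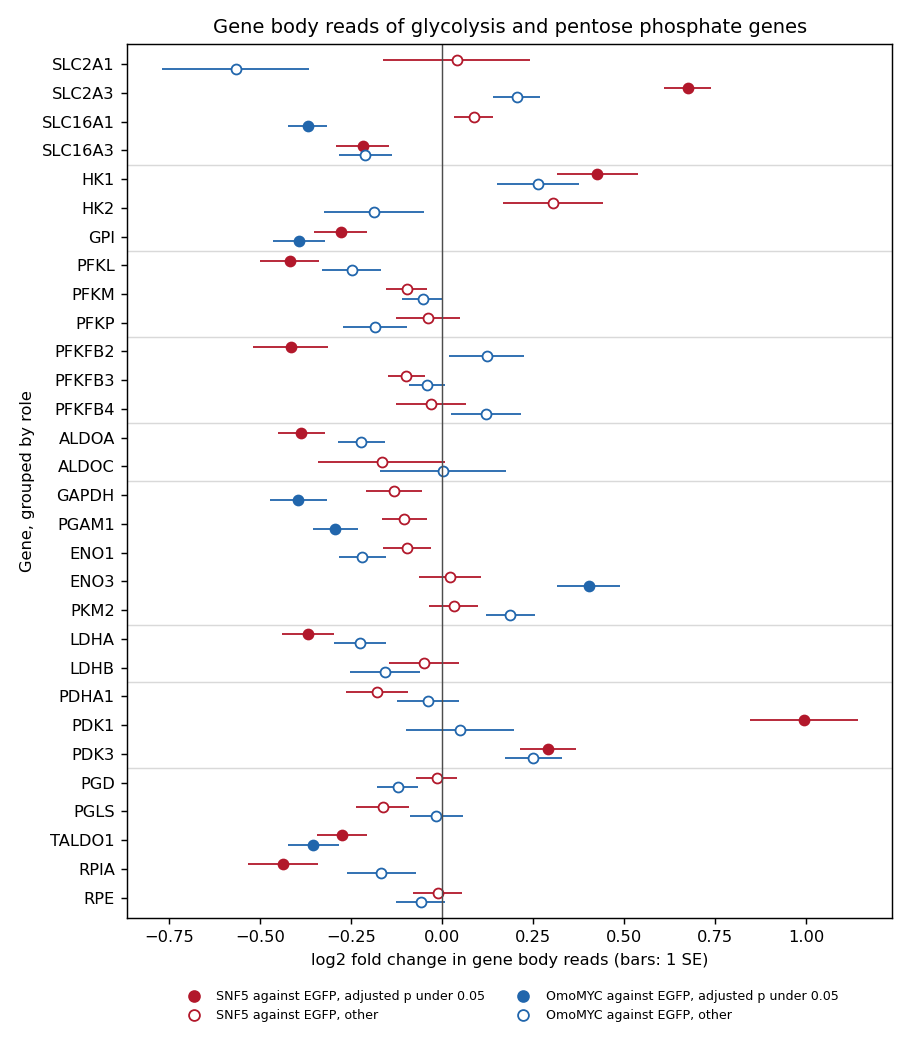
Log2 fold change in gene body reads for the 30 genes tested (rows, by role), SNF5 (red) and OmoMYC (blue) against EGFP; bars are 1 SE and filled points have an adjusted p under 0.05. PDK1 with SNF5 stands farthest from 0 at 0.99, and most points of both colors lie left of 0.

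Of the 4 transport genes, SLC2A3 rose with SNF5 and SLC16A1 fell with OmoMYC. SLC2A3 (NM_006931, chr12:8071824-8088892 of hg19, minus strand) encodes GLUT3, a high-affinity glucose transporter. SLC2A3 gene body density was 6.49, 6.56 and 2.66 in the EGFP samples, 11.5, 10.3 and 3.85 in the SNF5 samples and 7.93, 7.66 and 2.85 in the OmoMYC samples. Each SNF5 value exceeded the EGFP value of its number, but the groups overlapped, with replicate 3 lowest in all constructs. The log2 change was 0.67 ± 0.064 (adjusted p = 0.000173) with SNF5 and 0.20 ± 0.064 (adjusted p = 0.0770) with OmoMYC, and the constructs differed by 0.47 ± 0.064 (adjusted p = 0.00144). SLC2A14 is a close copy of SLC2A3. The authors removed reads of low mapping quality, and how many reads were lost or still shared between such copies was not examined. The same holds for GAPDH, LDHA, LDHB, PGAM1 and ENO1, which have pseudogene copies elsewhere in the genome.

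SLC16A1 (NM_003051, chr1:113454470-113498975 of hg19, minus strand) carried a MYC peak and an E-box, as printed above. Replicates 1 to 3 gave SLC16A1 densities of 3.29, 3.27 and 3.27 in the EGFP samples, 3.56, 3.29 and 3.60 in the SNF5 samples and 2.55, 2.39 and 2.68 in the OmoMYC samples. The 3 OmoMYC samples lay below all other samples, and SNF5 and EGFP overlapped. Its change was −0.37 ± 0.054 (adjusted p = 0.0152) with OmoMYC and 0.086 ± 0.054 (adjusted p = 0.241) with SNF5, and the constructs differed by 0.46 ± 0.054 (adjusted p = 0.000731), with no overlap between them. SLC16A3, the lactate exporter MCT4, had −0.22 ± 0.073 (adjusted p = 0.0461) with SNF5 and −0.21 ± 0.074 (adjusted p = 0.0989) with OmoMYC.

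SLC2A1 (NM_006516, chr1:43391046-43424847 of hg19, minus strand) encodes GLUT1, the transporter of most dividing cells. For SLC2A1 the gene body density was 13.6, 11.2 and 2.44 in the EGFP samples, 10.2, 9.18 and 4.26 in the SNF5 samples and 8.36, 7.68 and 1.84 in the OmoMYC samples. Replicate 3 was far below the others, at 0.196, 0.440 and 0.229 of the mean of replicates 1 and 2 for EGFP, SNF5 and OmoMYC. SLC2A3 had ratios of 0.407, 0.353 and 0.366, and over all genes tested the medians were 0.992 to 0.997. The other 28 genes ran from 0.623 to 2.15. For SLC2A1 the SNF5 to EGFP ratio was 0.744, 0.817 and 1.75 in replicates 1, 2 and 3, and the log2 change was 0.040 ± 0.20 (adjusted p = 0.899). Leaving out replicate 3 turned it to −0.37 (adjusted p = 4.58e-06), and leaving out replicate 1 gave 0.27 (adjusted p = 0.468). With OmoMYC the ratios were 0.613, 0.683 and 0.754, all below 1, and the log2 change was −0.57 ± 0.20 (adjusted p = 0.103), which became −0.64 with replicates 1 and 2 alone (adjusted p = 1.15e-07).

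Among the hexokinases and the isomerase, GPI was lower with both constructs. HK2 (NM_000189, chr2:75059782-75120481 of hg19, plus strand) kept a MYC peak with SNF5, as described. In RPKM, HK2 had 0.926, 0.875 and 1.33 in the EGFP samples, 1.28, 1.32 and 1.19 in the SNF5 samples and 0.776, 0.803 and 1.17 in the OmoMYC samples. SNF5 lay above EGFP in replicates 1 and 2 and below it in replicate 3, and above OmoMYC in all 3 with no overlap. The changes were 0.30 ± 0.14 (adjusted p = 0.117) with SNF5 and −0.19 ± 0.14 (adjusted p = 0.402) with OmoMYC, and the difference between the constructs was 0.49 ± 0.14 (adjusted p = 0.0371).

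GPI (NM_001184722, chr19:34855645-34893318 of hg19, plus strand) makes fructose 6-phosphate from glucose 6-phosphate. Gene body reads of GPI stood at 3.35, 1.69 and 3.46 in the EGFP samples, 2.90, 1.48 and 2.56 in the SNF5 samples and 2.48, 1.27 and 2.74 in the OmoMYC samples. Replicate 2 was lowest in each construct, and within each number both constructs were below EGFP. It fell by 0.28 ± 0.072 (adjusted p = 0.0165) with SNF5 and 0.39 ± 0.072 (adjusted p = 0.0255) with OmoMYC on the log2 scale. HK1, the hexokinase of most tissues, rose with SNF5 (0.43 ± 0.11, adjusted p = 0.0179) and not significantly with OmoMYC (0.26 ± 0.11, adjusted p = 0.157).

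The phosphofructokinases and the PFKFB enzymes, which set the first committed step, gave 2 calls, both lower with SNF5. PFKL (NR_024108, chr21:45719925-45747261 of hg19, plus strand) is the liver-type subunit. PFKL gene body density was 2.53, 1.18 and 2.02 in the EGFP samples, 1.83, 0.907 and 1.52 in the SNF5 samples and 1.83, 1.03 and 1.90 in the OmoMYC samples. Replicate 2 was lowest in every construct, and all 3 SNF5 samples were below the EGFP sample of their number. The change was −0.42 ± 0.081 (adjusted p = 0.00490) with SNF5 and −0.25 ± 0.081 (adjusted p = 0.0826) with OmoMYC. PFKFB2, which makes and breaks fructose 2,6-bisphosphate, fell with SNF5 (−0.42 ± 0.10, adjusted p = 0.0142), was at 0.12 ± 0.10 (adjusted p = 0.466) with OmoMYC, and differed between the constructs (−0.54 ± 0.10, adjusted p = 0.00746). PFKM, PFKP, PFKFB3 and PFKFB4 had log2 changes of −0.099 to −0.032 with SNF5 and −0.18 to 0.12 with OmoMYC, with adjusted p-values of at least 0.159 and 0.199.

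ALDOA (NM_000034, chr16:30064411-30081741 of hg19, plus strand) encodes the main aldolase, which splits fructose 1,6-bisphosphate. Replicates 1 to 3 gave ALDOA densities of 6.11, 7.45 and 7.49 in the EGFP samples, 4.58, 5.90 and 5.64 in the SNF5 samples and 4.68, 6.84 and 6.70 in the OmoMYC samples. The SNF5 samples lay below all EGFP samples. The change was −0.39 ± 0.065 (adjusted p = 0.00261) with SNF5, which also passed without each replicate in turn, and −0.22 ± 0.065 (adjusted p = 0.0637) with OmoMYC. ALDOC, the brain aldolase, had −0.17 ± 0.17 (adjusted p = 0.490) and 0.0020 ± 0.17 (adjusted p = 0.995).

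From GAPDH to pyruvate kinase, 3 of the 5 genes tested changed with OmoMYC, beside 8.49% of all genes, while the lowest adjusted p with SNF5 was 0.208, where 34.4% of all genes passed. GAPDH (NM_002046, chr12:6643585-6647537 of hg19, plus strand) oxidizes glyceraldehyde 3-phosphate. For GAPDH the gene body density was 20.8, 14.5 and 20.2 in the EGFP samples, 19.2, 14.5 and 16.7 in the SNF5 samples and 14.5, 11.7 and 15.8 in the OmoMYC samples. OmoMYC was below EGFP and below SNF5 in each number, although the groups overlapped. The change was −0.40 ± 0.078 (adjusted p = 0.0259) with OmoMYC and −0.13 ± 0.077 (adjusted p = 0.208) with SNF5, and SNF5 exceeded OmoMYC by 0.26 ± 0.077 (adjusted p = 0.0449). That difference did not pass when gene body totals alone set the scale (0.21, adjusted p = 0.0830).

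PGAM1 (NM_002629, chr10:99186027-99193198 of hg19, plus strand), phosphoglycerate mutase, and ENO1 (NM_001428, chr1:8921059-8939151 of hg19, minus strand) follow in the pathway. In RPKM, PGAM1 had 11.2, 11.2 and 11.9 in the EGFP samples, 10.5, 9.97 and 11.5 in the SNF5 samples and 8.73, 8.70 and 10.6 in the OmoMYC samples. Gene body reads of ENO1 stood at 16.5, 16.3 and 15.5 in the EGFP samples, 15.2, 14.6 and 15.4 in the SNF5 samples and 13.2, 13.1 and 15.2 in the OmoMYC samples. In both, the OmoMYC samples lay below all EGFP samples. PGAM1 passed (−0.29 ± 0.062, adjusted p = 0.0304) and ENO1 did not (−0.22 ± 0.065, adjusted p = 0.0667). With SNF5 they were at −0.10 ± 0.062 (adjusted p = 0.222) and −0.10 ± 0.065 (adjusted p = 0.278).

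ENO3 (NM_001976, chr17:4854384-4860426 of hg19, plus strand), the muscle enolase, went the other way. ENO3 gene body density was 3.59, 3.09 and 3.48 in the EGFP samples, 3.61, 3.18 and 3.52 in the SNF5 samples and 4.88, 4.36 and 4.20 in the OmoMYC samples. All OmoMYC samples were above all others. The rise was 0.40 ± 0.086 (adjusted p = 0.0308) with OmoMYC, SNF5 gave 0.021 ± 0.086 (adjusted p = 0.873), and SNF5 was below OmoMYC by 0.38 ± 0.085 (adjusted p = 0.0148). PKM2 (NM_002654, chr15:72491370-72523727 of hg19, minus strand) is the table's symbol for pyruvate kinase, counted over the whole gene and not by splice form. Replicates 1 to 3 gave PKM2 densities of 11.7, 8.89 and 11.2 in the EGFP samples, 11.3, 8.59 and 12.9 in the SNF5 samples and 12.3, 9.59 and 14.7 in the OmoMYC samples. OmoMYC was above EGFP in each number, by less than the replicates differed. Neither construct passed (0.031 ± 0.068, adjusted p = 0.753 with SNF5 and 0.19 ± 0.068, adjusted p = 0.109 with OmoMYC).

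Of the lactate dehydrogenase genes, LDHA passed with SNF5 and LDHB did not. LDHA (NM_001165416, chr11:18415936-18429765 of hg19, plus strand) had a MYC peak and an E-box. For LDHA the gene body density was 14.1, 13.9 and 10.9 in the EGFP samples, 11.1, 10.3 and 8.73 in the SNF5 samples and 11.7, 10.6 and 10.7 in the OmoMYC samples. SNF5 and OmoMYC were below EGFP in each number. LDHA fell with SNF5 (−0.37 ± 0.071, adjusted p = 0.00479) and did not pass with OmoMYC (−0.23 ± 0.071, adjusted p = 0.0759). LDHB (NM_002300, chr12:21788275-21810789 of hg19, minus strand), bound by MYC too, encodes the heart-type subunit. In RPKM, LDHB had 7.82, 11.0 and 10.1 in the EGFP samples, 8.62, 11.2 and 8.03 in the SNF5 samples and 7.20, 9.26 and 9.38 in the OmoMYC samples. Replicate 1 was lowest for EGFP and OmoMYC, and the groups overlapped. Its changes were −0.050 ± 0.10 (adjusted p = 0.715) and −0.16 ± 0.10 (adjusted p = 0.313).

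Control of pyruvate dehydrogenase held the largest change of the 30 genes. PDK1 (NM_002610, chr2:173420779-173463862 of hg19, plus strand) encodes the kinase that switches the complex off, a textbook HIF-1 target. Gene body reads of PDK1 stood at 0.397, 0.463 and 0.549 in the EGFP samples, 0.987, 1.04 and 0.774 in the SNF5 samples and 0.476, 0.451 and 0.529 in the OmoMYC samples. Every SNF5 sample exceeded every other sample. The rise was 0.99 ± 0.15 (adjusted p = 0.00150) with SNF5, about 1.99-fold, OmoMYC gave 0.049 ± 0.15 (adjusted p = 0.859), and the constructs differed by 0.94 ± 0.15 (adjusted p = 0.00276). The SNF5 to EGFP ratio was 2.48, 2.25 and 1.41 in replicates 1, 2 and 3. It was the only gene of the 30 that also passed without the replicate block (adjusted p = 0.0333). PDK3, another kinase of the family, rose with SNF5 (0.29 ± 0.077, adjusted p = 0.0188) and had 0.25 ± 0.077 (adjusted p = 0.0739) with OmoMYC, while PDHA1, the subunit they phosphorylate, was at −0.18 ± 0.085 (adjusted p = 0.134) and −0.039 ± 0.085 (adjusted p = 0.804).

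**Figure D3:**
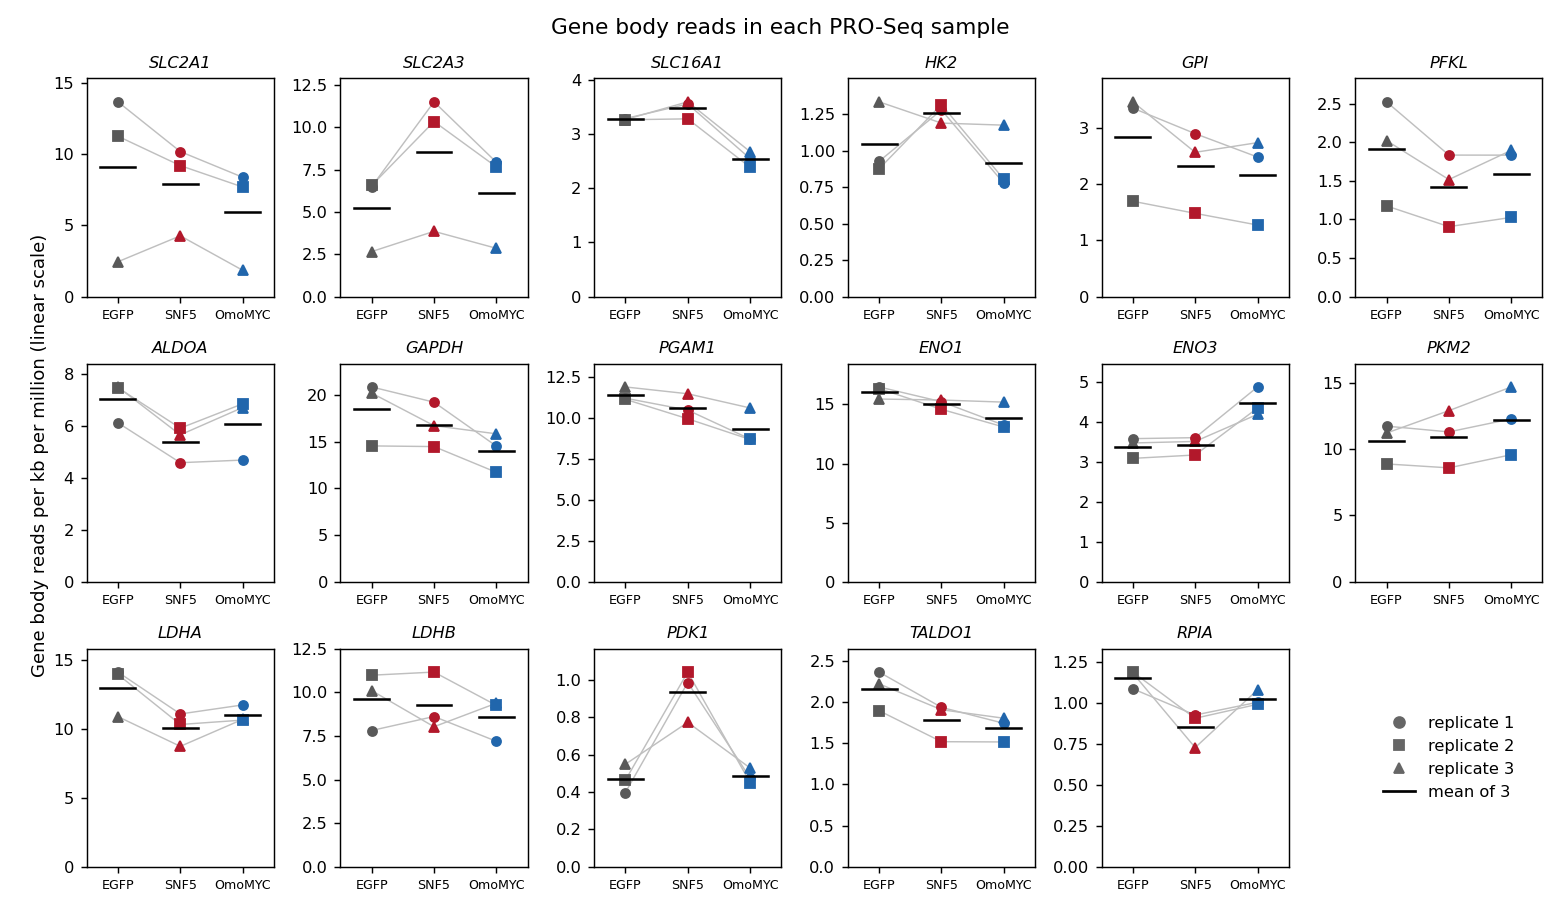
Gene body reads (RPKM, linear) in each PRO-Seq sample for the 17 genes given in full (panels); marker shape gives the replicate number, grey lines join samples of a number and black bars are means of 3, on axes that start at 0. For PDK1 all SNF5 samples lie above the others, and replicate 3 of SLC2A1 lies far below replicates 1 and 2.

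Of the 5 pentose phosphate genes tested, RPIA and TALDO1 fell with SNF5, where 17.1% of all genes did, and TALDO1 fell with OmoMYC, where 4.52% did. RPIA (NM_144563, chr2:88991176-89050452 of hg19, plus strand) makes ribose 5-phosphate and had a MYC peak with an E-box in an exon. RPIA gene body density was 1.09, 1.19 and 1.18 in the EGFP samples, 0.928, 0.908 and 0.729 in the SNF5 samples and 1.01, 0.994 and 1.08 in the OmoMYC samples. The SNF5 samples were lowest, the OmoMYC samples between and the EGFP samples highest, with no overlap. Its change was −0.44 ± 0.10 (adjusted p = 0.00866) with SNF5 and −0.17 ± 0.10 (adjusted p = 0.278) with OmoMYC, and only the first passed.

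TALDO1 (NM_006755, chr11:747432-765024 of hg19, plus strand), which links the pathway back to glycolysis, was the gene besides GPI that passed with both. Replicates 1 to 3 gave TALDO1 densities of 2.36, 1.89 and 2.22 in the EGFP samples, 1.93, 1.52 and 1.90 in the SNF5 samples and 1.74, 1.51 and 1.80 in the OmoMYC samples. No OmoMYC sample reached the EGFP range. The changes were −0.28 ± 0.069 (adjusted p = 0.0149) and −0.35 ± 0.069 (adjusted p = 0.0259) with SNF5 and OmoMYC. PGD, an enzyme that yields NADPH, had −0.015 ± 0.056 (adjusted p = 0.857) and −0.12 ± 0.056 (adjusted p = 0.185). PGLS and RPE had −0.16 and −0.013 with SNF5 and −0.016 and −0.059 with OmoMYC, and did not pass.

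Genes of these pathways outside the 34 gave calls in both directions with SNF5. Of 16 other glycolysis and gluconeogenesis genes tested, 2 rose with SNF5, among them C12orf5 at 0.17, and 2 fell (G6PC3 at −0.49 and PCK2 at −0.30), with a median of 0.026. That is 25% called, below the 34.4% of all genes. With OmoMYC 1 rose (PC, pyruvate carboxylase, at 0.42), with a median of 0.094, where 8.49% of all genes passed. Of 7 other pentose phosphate genes, DERA and PGM2 rose and PRPS2 fell with SNF5, and PGM1 rose and PRPS2 fell with OmoMYC. These are 42.9% and 28.6% of the 7, against 34.4% and 8.49% of all genes, and the medians were 0.19 and 0.15. PRPS2, which makes phosphoribosyl pyrophosphate, had −0.51 and −0.61.

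MYC peaks and gene body changes were set side by side by class, with peaks counted at the table's starts. The 6 genes with a MYC peak in both EGFP samples had a median log2 change of −0.22 with OmoMYC, 6 of 6 below 0 and 2 called lower, and −0.11 with SNF5, 5 of 6 below 0 and 2 called lower. The 9 genes tested with a peak in 1 EGFP sample had −0.054 and −0.098. The 15 without a peak at the table's start had −0.042 and −0.038. These 15 include HK2, ENO3 and PFKFB3, which had peaks in both EGFP samples at GENCODE starts, and ALDOA, which had one in EGFP 2, so that they are not all free of MYC peaks. ENO3 was the gene among them called higher with OmoMYC. Over all genes the same classes had medians of −0.15, −0.074 and 0.048 with OmoMYC and −0.20, −0.13 and 0.040 with SNF5. With OmoMYC 19.4% of all bound genes were lower, and with SNF5 42.5%. The classes overlap in their values, and no difference between classes was tested.

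Polymerase near the start was read in 50-bp windows for 27 genes. HK1, HK2 and SLC16A3 had means under 10 reads there and were not tested, with HK2 at 1 to 20 reads in a window upstream of its GENCODE starts. SLC2A3 was the 1 gene of 27 that changed with SNF5, where 4.3% of all genes tested did, 2.62% higher. Its promoter-proximal level, in RPM scaled to the same gene body reads, was 3.51, 14.3 and 3.34 in the EGFP samples, 5.03, 26.9 and 6.71 in the SNF5 samples and 3.94, 28.1 and 5.16 in the OmoMYC samples. SNF5 was above EGFP in each number. The rise was 0.82 ± 0.22 (adjusted p = 0.0244) with SNF5, and OmoMYC gave 0.62 ± 0.22 (adjusted p = 0.149). It did not pass without replicate 2 (0.78, adjusted p = 0.488) or replicate 3 (0.72, adjusted p = 0.0563).

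With OmoMYC PGAM1 alone of the 27 changed promoter-proximally, where 1.75% of all genes did, 0.169% lower. Its level was 2.32, 4.34 and 3.88 in the EGFP samples, 2.55, 2.95 and 1.44 in the SNF5 samples and 2.03, 1.99 and 1.48 in the OmoMYC samples. OmoMYC lay below all EGFP samples. The change was −0.94 ± 0.25 (adjusted p = 0.0434), against a median of 0.12 over all genes, and SNF5 gave −0.64 ± 0.24 (adjusted p = 0.121). It did not pass with DESeq2 (adjusted p = 0.0563), without replicate 2 (−0.85, adjusted p = 1.00) or without replicate 3 (−0.68, adjusted p = 0.0811). Scaling by the promoter-proximal reads themselves moved that median to −0.031 and the calls over all genes from 178 higher and 19 lower to 115 and 106. With that scaling the calls for SNF5 over all genes went from 295 higher and 188 lower to 454 and 587, and those between the constructs from 54 and 40 to 94 and 30. Between SNF5 and OmoMYC, edgeR called 0 of the 27 (3 at an unadjusted p under 0.05, 0 with DESeq2) and 0.836% of all genes.

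The pausing index, promoter-proximal over gene body density, changed for 0 of the 27 genes with SNF5 by edgeR (5 at an unadjusted p under 0.05, 0 with DESeq2), where 3.66% of all genes passed. PFKP, the platelet phosphofructokinase, was nearest at 0.88 ± 0.27 (adjusted p = 0.0506). Its index was 2.98, 7.88 and 6.92 in the EGFP samples, 1.65, 20.9 and 17.5 in the SNF5 samples and 2.84, 15.6 and 13.7 in the OmoMYC samples. SNF5 was above EGFP in replicates 2 and 3 and below it in replicate 1.

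With OmoMYC SLC16A1 alone gained a higher index, where 2.26% of all genes passed, and 2.18% of all genes were higher. Promoter-proximal scaling moved these calls from 243 higher and 9 lower to 132 and 65, and those between SNF5 and OmoMYC from 14 and 123 to 61 and 92. Its index was 13.6, 141 and 81.0 in the EGFP samples, 15.6, 155 and 92.4 in the SNF5 samples and 22.0, 259 and 127 in the OmoMYC samples. OmoMYC exceeded EGFP in all 3 numbers, although the index varied more between numbers than between constructs. The change was 0.75 ± 0.21 (adjusted p = 0.0430), against 0.17 ± 0.21 (adjusted p = 0.711) with SNF5 and a median of 0.14 over all genes, and it did not pass with DESeq2 (adjusted p = 0.0758), with promoter-proximal scaling (0.0729), without replicate 1 (0.106) or without replicate 2 (1.00). GAPDH had 0.69 ± 0.22 (adjusted p = 0.0813). SNF5 against OmoMYC gave 0 of 27 (2 at an unadjusted p under 0.05, 0 with DESeq2) beside 1.23% of all genes. GPI, PDK3, PDK1 and RPIA had means of 16.1 to 25.7 reads in the window over the 9 samples, the lowest of those tested.

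**Figure D4:**
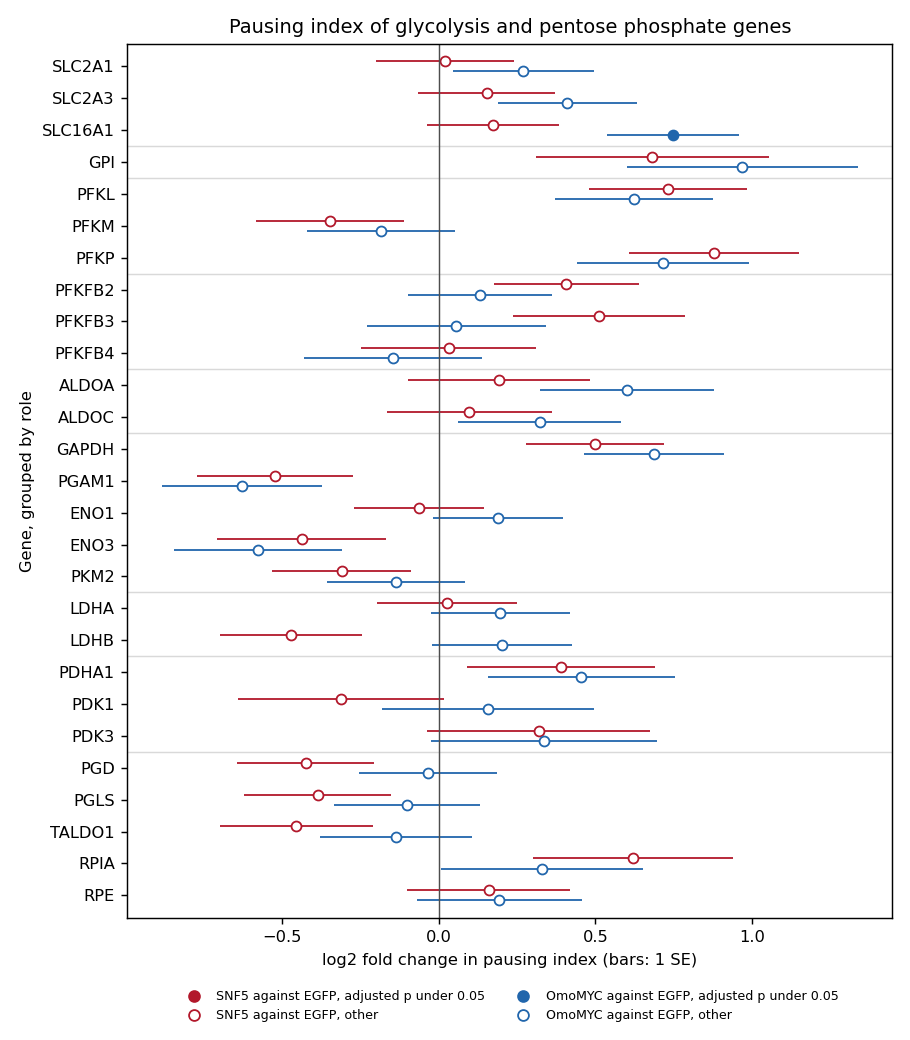
Log2 fold change in pausing index for the 27 genes tested (rows, by role), SNF5 (red) and OmoMYC (blue) against EGFP; bars are 1 SE and filled points have an adjusted p under 0.05. SLC16A1 with OmoMYC is the 1 filled point, at 0.75, and the SEs are wider than those of the gene body changes.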

How the data were processed

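PRO-Seq, ATAC-Seq and MYC ChIP-Seq of G401 cells were analysed from the deposited files. For PRO-Seq the authors trimmed and aligned reads to hg19, removed ribosomal and low-quality reads, and counted them per RefSeq transcript in a 50-bp promoter-proximal window near the start and in the gene body from 1 kb past it. The deposited values used were raw read counts. The coverage columns that the authors deposited (signal, in reads per bp) were used to obtain lengths only. For MYC ChIP-Seq (hg19) and ATAC-Seq (hg38) the authors called peaks per sample with MACS2, and deposited each peak's fold enrichment (a ratio), its −log10 p-value and q-value, and its summit position. IgG libraries were not used, and both OmoMYC ChIP-Seq lists hold a placeholder line, counted as 0 peaks. Versions of the authors' tools are not given here.

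Where a symbol had several of the 20582 transcripts, the one with most gene body reads was kept (20367 symbols). Genes with a mean of at least 10 counts over the 9 samples were tested with edgeR 4.0.16 (quasi-likelihood test, R 4.3.3) in one fit of all samples, with construct and replicate number as terms and gene body totals times RLE factors as offset. Every adjusted p in the text is from that test, or from DESeq2 1.42.0 where it is named, with Benjamini-Hochberg adjustment over all genes tested and a threshold of 0.05. The pausing index was tested as the interaction of construct and region. Errors are SE on the log2 scale. The scripts were tested on simulated data.

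The labels give all constructs the same replicate numbers, and the study's methods include a batch term. Deviations from group means correlated at 0.837 to 0.926 between samples of one number and at −0.729 to 0.183 between others (gene body), and at 0.693 to 0.936 and −0.823 to 0.190 (promoter-proximal), so that the number was kept as a block. The labels do not say that replicates came from separate cultures, while the paper describes them as independent experiments and biological replicates. P-values are set against the spread between these samples that is left after construct and replicate number are fitted. An exact permutation test of 3 against 3 cannot go below p = 0.1 and was not used.

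A gene counted as bound or open where a peak summit lay within 1 kb of its start, with GENCODE starts of GRCh38 for ATAC-Seq. Peak lists carry no read depth. Values in every sample are given for the genes with the 6 smallest adjusted p-values under the threshold in each comparison with EGFP, for genes bound by MYC in both EGFP samples, and for HK2, PKM2, LDHA, ENO1, GAPDH, SLC2A1 and TKT. Some genes outside the 34 that the rule or lists hold are not reported here. The genes and lists were chosen with earlier results of these data known. Alternatives were DESeq2, other scalings and filters, no block, each pair of constructs alone, each replicate left out, and other peak distances, starts and thresholds.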

Additional observations from a re-analysis of the deposited data

How the results depend on the processing

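The calls depended on the replicate block and on which replicates entered. With no replicate block, edgeR called 1 of the 30 genes on gene bodies with SNF5, 0 with OmoMYC (5 at an unadjusted p under 0.05) and 0 between the constructs (5 unadjusted), and 0 promoter-proximally or in pausing index in each comparison (0 unadjusted). Over all genes, the calls without the block went from 5181 to 223 with SNF5, from 1279 to 1 with OmoMYC and from 2858 to 75 between the constructs on gene bodies, and to 0 for the other measures. Leaving out each replicate in turn gave, on gene bodies, 3 to 20 calls among the 30 with SNF5, 0 to 23 with OmoMYC and 3 to 17 between the constructs. Promoter-proximally it gave 0 to 5 with SNF5 and 0 to 2 with OmoMYC, and in pausing index 0 to 2 with SNF5, 0 to 3 with OmoMYC and 0 to 1 between the constructs. Over all genes the same removals gave 1450 to 8565, 2 to 6756 and 741 to 6253 gene body calls, 57 to 1020, 4 to 827 and 26 to 496 promoter-proximal calls against 483, 197 and 94, and 9 to 617, 0 to 954 and 9 to 471 pausing index calls against 409, 252 and 137. The causes were not tested.

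DESeq2 called 0 of the 27 with OmoMYC both promoter-proximally and in pausing index, and over all genes it called 2108 gene bodies with OmoMYC, 312 and 62 promoter-proximal windows with SNF5 and between the constructs, and 101, 68 and 40 pausing indices. With only 2 constructs in the fit, pausing index calls were 0 with OmoMYC and 1 between the constructs. All-gene calls were then 1964 for gene bodies with OmoMYC, 291 promoter-proximally between the constructs, and 177 and 348 in pausing index with SNF5 and between the constructs. Promoter-proximal scaling gave 5 promoter-proximal calls with SNF5, 2 in pausing index with SNF5 and 0 in pausing index with OmoMYC, beside 1041 and 804 calls over all genes with SNF5. With no filter on low counts, 4 promoter-proximal and 2 pausing index calls were made with SNF5 and 1 promoter-proximal call between the constructs, and all-gene promoter-proximal calls were 807, 298 and 266.

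For peaks, counting 1 EGFP sample as enough gave 16 genes bound by MYC, and GENCODE starts gave 10, with 1 in a SNF5 sample. Equal numbers of strongest peaks gave 13 open starts and 0 gained with SNF5, and asking for 2 of 3 samples gave 1 start gained with OmoMYC. Over the PRO-Seq call counts and the peak counts together, 73 alternative values were equal to the reported ones, 0 included, or within 1.5 times them. The other 42 were not.

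Among single genes, 576 alternative values kept their direction and side of the threshold, 81 lost the call, 30 gained it and 16 changed sign. Of the last, gene body totals gave PFKFB3 at 0.010, PDHA1 at 0.012 and PGLS at 0.036 with OmoMYC. ALDOC with OmoMYC was at −0.018 with no block, at −0.0071 with 2 constructs, and from −0.072 to 0.076 over the removals of a replicate. Over those removals PDK1 ran from −0.048 to 0.11 and PGLS from −0.042 to 0.020 with OmoMYC. With SNF5 SLC2A1 was at −0.21 with no block and ran from −0.37 to 0.27, PFKP from −0.18 to 0.030, PFKFB4 from −0.057 to 0.0083, PKM2 from −0.063 to 0.086, LDHB from −0.16 to 0.070 and PGD from −0.055 to 0.012.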

Other observations

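Genes around the pathway are given beside all genes tested, of which 34.4% passed with SNF5 and 8.49% with OmoMYC. Of 17 genes of pyruvate entry and sugar transport tested on gene bodies, 5 rose with SNF5, namely SLC2A2 (log2 change 2.75), SLC2A14 (1.68), SLC2A12 (1.61), PDP1 (0.81) and SLC2A13 (0.55), and PDP2 (−0.46) and BSG (−0.36) fell. BSG encodes a chaperone of lactate carriers. With OmoMYC SLC2A13 (0.90), SLC2A12 (0.65) and SLC2A10 (0.55) rose and BSG (−0.34) fell. These are 41.2% of the list with SNF5 and 23.5% with OmoMYC, and the medians were 0.092 and 0.070.

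Of 20 HIF targets outside glycolysis, NDRG1 (2.15), CA12 (0.91) and EGLN1 (0.58) rose and DDIT4 (−0.38) fell with SNF5, which is 20% of the list against 34.4% of all genes, with a median of −0.014. P4HA2 (0.40) and MXI1 (0.32) rose and VEGFA (−0.39) fell with OmoMYC (15% of the list against 8.49%), with a median of 0.088. Of 13 regulators of glycolytic transcription, EPAS1 (2.14) and HIF1A (0.24), the HIF alpha subunits, rose with SNF5, and among those that fell were ARRDC4 (−0.66), VHL (−0.33), SP1 (−0.23) and ARNT (−0.18), with a median of −0.18, and 53.8% of the list passed against 34.4% of all genes. MYC (0.95) alone passed with OmoMYC, where construct reads are included (7.69% of the list against 8.49%). Over all genes tested the medians were −0.031 and −0.0033. These lists were chosen with results of these data known and support nothing by themselves.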
